A study of Arabidopsis thaliana with 24 samples.

Results

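Roots of an Arabidopsis thaliana line that carries an inducible silencing construct against TOR, but had received no inducer, were compared with wild-type roots after the same auxin treatment. The comparison uses 6 of the 24 RNA-sequencing libraries of the series, picked by their titles. The 3 amiR-TOR libraries come from plants of the genotype UB10pro_amiR-TOR, which carries an artificial microRNA against TOR that is switched on by estradiol, and the 3 Col-0 libraries come from the wild type. All 6 had the same handling per the labels' protocols. Seedlings grew for 7 d, spent 24 h on 10 µM NPA, a blocker of auxin transport, and then 24 h on NPA with the solvent DMSO. They were then moved to 10 µM of the auxin IAA with DMSO, and roots were harvested 6 h later. Each library pooled about 200 root pieces. The labels do not say how many independent transformed lines were used, nor whether libraries of a group came from separately grown plants, so p-values measure the spread between these libraries. In the other 18 libraries, both genotypes stayed on NPA, with or without estradiol, or received IAA with estradiol.

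TOR is a protein kinase that promotes ribosome production, translation and cell division when nutrients, sugar and auxin allow growth. Auxin given after NPA makes pericycle cells along the root start lateral root divisions nearly together, through ARF transcription factors and their Aux/IAA inhibitors and LBD targets. Without estradiol the microRNA should stay silent, so this pair of groups serves as the baseline against which the effect of silencing TOR is read.

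Neither the target of the construct nor a locus that reports its activity differed detectably between the groups. TOR itself had 62.4, 57.6 and 70.1 CPM (counts scaled to a common library size) in amiR-TOR, against 46.8, 65.4 and 58.7 CPM in Col-0. These groups overlapped, and the log2 fold change, given throughout as amiR-TOR over Col-0 with its standard error, was 0.16 ± 0.15 (Benjamini-Hochberg adjusted p = 0.559, edgeR's quasi-likelihood test). The MIR319a locus, whose backbone is commonly used for artificial microRNAs, had 0.483, 0.12 and 0.203 CPM in amiR-TOR and 0, 0.612 and 0.355 CPM in Col-0. With estradiol the same locus averaged 823 ± 195 CPM and TOR averaged 26.4 ± 1.70 CPM in amiR-TOR on IAA (SD, n = 3). None of 10 tested genes of the TOR complex and its direct substrates was called, and none had an unadjusted p under 0.05 or a call with DESeq2. Of 8 members of the miR319 list, MIR319a and its TCP and MYB targets, none was called by edgeR, 2 had an unadjusted p under 0.05, and DESeq2 called 1.

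Gene counts per library were 21015846, 8589833 and 19389158 in amiR-TOR and 14774474, 16446133 and 34296400 in Col-0. Replicate 2 of amiR-TOR was thus the shallowest library of the series. Reads that did not map made up 4.30%, 6.96% and 4.42% of amiR-TOR reads and 47.6%, 12.05% and 2.44% of Col-0 reads, so replicate 1 of Col-0 stood apart. All replicate pairs differed by more than counting noise.

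Even so, the uninduced line differed from Col-0 at many genes. Of 21290 genes tested, 1813 were called higher (8.52%) and 875 lower (4.11%) at an adjusted p under 0.05. Changes upwards were also larger: 840 genes were higher by 1 or more on the log2 scale (3.95%) and 68 were lower by that much (0.319%). The share of calls that were higher was 67.4%, but it was 55.4% with RLE scaling, 53.6% with DESeq2, 58.3% with counts taken without regard to strand and 73.6% when only the 2 groups were fitted. Replicate 2 of amiR-TOR was the highest of the 6 libraries in 467 of the 840 genes, and without it 1169 genes were called higher and 325 lower. Without replicate 1 of Col-0 these counts were 1157 and 383, without replicate 3 of Col-0 1112 and 471, and without replicate 3 of amiR-TOR 1382 and 465. The median of all genes was -0.01.

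The higher genes included most of those expressed along 1 segment of chromosome 1. The segment runs from AT1G72890 to AT1G76120, that is chr1:27429916-28560473 in the RefSeq assembly TAIR10.1, over 1131 kb. It was delimited after the data had been seen, from the NPA libraries alone, as the run of genes of at least 4 CPM in which the running median of 15 neighbouring genes exceeded a log2 fold change of 0.4. The same limit applied to the IAA libraries gave AT1G72940 to AT1G76090. Of 309 tested genes of the segment, 237 were called higher on IAA (76.7%) and 0 lower, by edgeR's quasi-likelihood test. DESeq2 called 246 higher and 0 lower. Of the 243 with at least 4 CPM, 216 were called higher by edgeR (88.9%). Elsewhere on chromosomes 1 to 5, 7.54% of 20896 genes were called higher, and 7.63% of the 5319 on the rest of chromosome 1. The segment holds 1.45% of the tested genes and 13.1% of those called higher.

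The size of the difference was alike along the segment. The median log2 fold change was 0.82, a ratio of 1.77, with quartiles at 0.63 and 1.02, against -0.01 outside. The 2 groups did not overlap in 255 of the 309 genes, all with amiR-TOR higher, where 16.0% of all tested genes did so. On NPA, whose libraries set the limits of the segment, 232 were called higher and 1 lower, with a median of 0.81; the choice of the segment fixes this direction, so these values are a description.

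**Figure D1:**
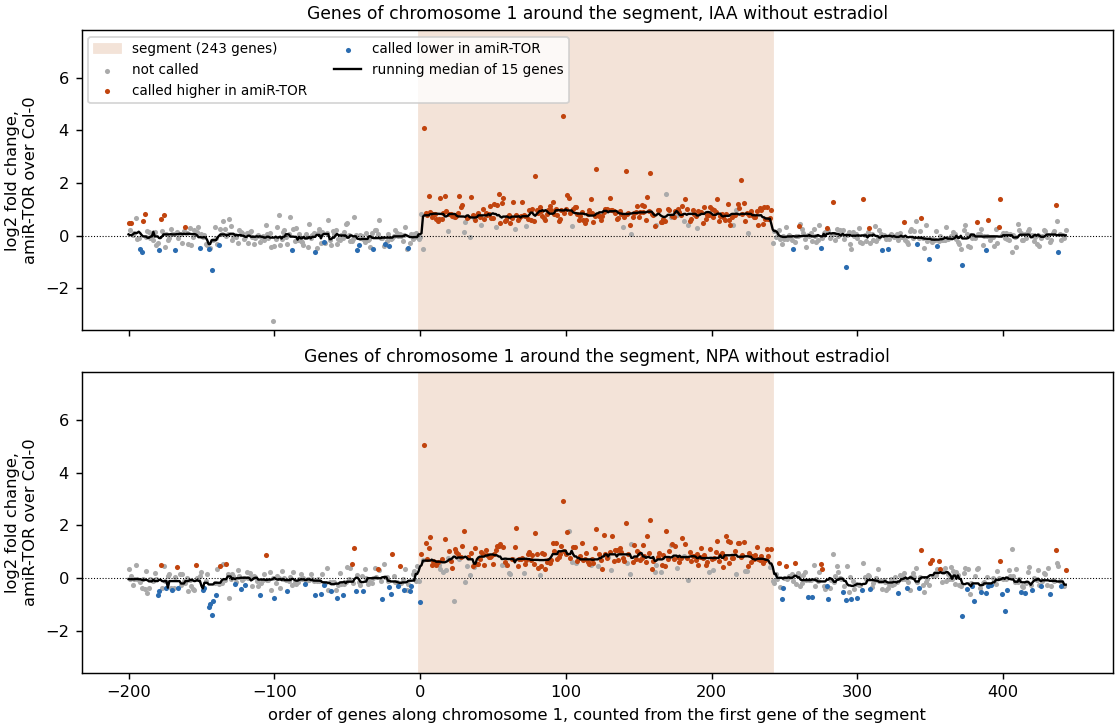
Each point is a gene of at least 4 CPM, placed by its order along chromosome 1 (x axis, counted from the first gene of the shaded segment), against the log2 fold change of amiR-TOR over Col-0 (y axis), on IAA (top) and on NPA (bottom), both without estradiol. The black line, a running median of 15 genes, stands near 0 on both sides of the segment and near 0.8 within it.

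Each library of the line on IAA carried this offset. Set against the mean of Col-0 on NPA, the median log2 ratio of segment genes minus that of the rest of chromosome 1 was 0.83, 0.79 and 0.83 in the amiR-TOR libraries on IAA, against 0.001, 0.04 and 0.06 in the Col-0 libraries on IAA. The groups lay far apart, by 0.78 on average, and the two-sided exact permutation test gave p = 0.10, the smallest that 3 against 3 libraries allow. In the libraries with estradiol, which did not enter the choice of the segment either, the means were 0.87 on IAA and 0.78 on NPA in amiR-TOR, against 0.04 and 0.004 in Col-0. The NPA libraries without estradiol chose the segment, and Col-0 among them is the baseline, so they are set aside. In the segment, replicate 2 of amiR-TOR was not set apart: replicates 1, 2 and 3 were the highest of the 6 libraries in 103, 100 and 91 of the 309 genes. Leaving out any 1 of the 6 libraries left 203 to 221 segment genes called higher and a median of 0.81 to 0.83. The number of copies of this DNA was not measured, and the cause of the offset was not tested.

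The right edge was sharp, and the left edge was less so. To the left, AT1G72880, a SurE-like phosphatase, had 24.99, 21.1 and 25.8 CPM in amiR-TOR and 25.98, 29.0 and 24.4 CPM in Col-0. The 6 tested genes from AT1G72890 to AT1G72950, all encoding TIR-domain proteins, were not called on IAA and differed among themselves. AT1G72900 had 18.8, 24.7 and 22.7 CPM in amiR-TOR and 12.3, 13.2 and 11.9 CPM in Col-0. Its log2 fold change was 0.82 (adjusted p = 0.0597, edgeR's quasi-likelihood test), while AT1G72940 was at -0.52. On NPA AT1G72900 and AT1G72920 were called higher, at 0.91 and 1.65, and AT1G72890 was called lower, at -0.91. The next tested gene, AT1G72960, encodes a GTP-binding protein of the RHD3 family. It had 11.2, 13.7 and 16.3 CPM in amiR-TOR, against 0.484, 0.857 and 0.947 CPM in Col-0. This is far beyond the offset of its neighbours, at a log2 fold change of 4.09 ± 0.32 (Benjamini-Hochberg adjusted p = 4.19e-08, edgeR's quasi-likelihood test), and on NPA it was 5.05.

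To the right, the sterol methyltransferase gene SMT3 had 108, 111 and 98.5 CPM in amiR-TOR and 53.1, 52.1 and 54.8 CPM in Col-0, a log2 fold change of 0.99 ± 0.11. AT1G76110, a gene for an HMG-box DNA-binding protein, was the last gene called higher. The prolyl oligopeptidase gene AT1G76140, a short distance on, had 72.7, 78.3 and 76.3 CPM in amiR-TOR and 73.2, 84.6 and 77.0 CPM in Col-0. Its groups overlapped.

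The 4 most abundant genes inside the segment differed among themselves. KTI1, a Kunitz trypsin inhibitor that limits cell death after pathogen attack, had 859, 892 and 723 CPM in amiR-TOR and 275, 333 and 262 CPM in Col-0. The nascent-polypeptide-associated gene AT1G73230 had 797, 834 and 737 CPM in amiR-TOR, against 518, 396 and 531 CPM in Col-0. WAT1, a vacuolar auxin transporter needed for secondary walls, had 736, 863 and 670 CPM in amiR-TOR and 443, 591 and 509 CPM in Col-0. All 3 genes were called, with groups that did not overlap, at log2 fold changes of 1.51, 0.71 and 0.56, the last below the segment's lower quartile. DR4 had 492, 382 and 435 CPM in amiR-TOR, against 434, 406 and 529 CPM in Col-0, and was not called.

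Several genes with roles in defence and signalling lie in this segment, and they are marked where they come up below. They are MYB122 and SOT16 of the indole list, SARD1 and PEPR1 of the immunity list, ICS1, JAZ2, ARR15, AT1G74770, HSP101 and GSTU10. All but ARR15 were called higher. The next longest such run of genes on IAA was a cluster on another arm of chromosome 1, chr1:4615767-4642190 in TAIR10.1. There 8 neighbouring genes of 1 family of unknown function (DUF1262), AT1G13480 to AT1G13550, were all called higher on IAA and on NPA, between 2 genes that were not. Of all tested genes 8.52% were called higher on IAA and 10.7% on NPA. The IAA values chose this run, so its calls on IAA are a description. Its median log2 ratio to the Col-0 mean on NPA was 0.80, 1.37 and 1.03 in amiR-TOR on IAA. In Col-0 on IAA it was 0.01, 0.31 and -0.13. With estradiol on IAA it was 1.62, 1.51 and 1.18 in amiR-TOR and 0.38, 1.15 and 0.69 in Col-0. These Col-0 values overlap those of amiR-TOR without estradiol. AT1G13550 had 7.49, 9.26 and 7.61 CPM in amiR-TOR and 1.66, 2.14 and 1.45 CPM in Col-0, a log2 fold change of 2.22 ± 0.35. The gene next to the cluster, AAPT1, had 96.3, 105 and 95.3 CPM in amiR-TOR and 115, 120 and 115 CPM in Col-0.

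Among the 12 largest rises, none of them in the segment, were genes of indole defence compounds. Such compounds are made from tryptophan through indole-3-acetaldoxime and include the phytoalexin camalexin, indole carbonyl nitriles and indole glucosinolates. Of 19 genes of the list, 12 rose and 0 fell (8.52% of all tested genes were called higher), with a median log2 fold change of 1.56. Outside the segment 10 of 17 rose, with a median of 0.85. Without replicate 2 of amiR-TOR 8 of the 19 were called and the median was 0.91, and that library was the highest of the 6 in 18 of the 19.

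CYP82C2, a cytochrome P450 of the 4-hydroxyindole carbonyl nitrile branch, had 19.9, 85.5 and 23.1 CPM in amiR-TOR and 0, 0 and 0.0296 CPM in Col-0. Col-0 thus held a single read, and the ratio of summed values was 2092 with a 95% counting interval of 375 to 82690. CYP71A12, which converts indole-3-acetaldoxime, had 70.3, 380.6 and 103.6 CPM in amiR-TOR and 0.829, 0.857 and 0.651 CPM in Col-0, a log2 fold change of 7.92 ± 1.65 (Benjamini-Hochberg adjusted p = 0.00493, edgeR's quasi-likelihood test). Its near copy CYP71A13 had 2.27, 12.99 and 5.32 CPM in amiR-TOR and 0 in each Col-0 library. Against a floor of 3 counts in each Col-0 library it was at least 42.9-fold higher. Its call by edgeR's quasi-likelihood test was lost without replicate 2 of amiR-TOR, at an adjusted p of 0.081. The coding sequences of the pair are 90.4% identical, so the split of reads between them is uncertain.

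AT1G26380, a berberine-bridge-type oxidase of the carbonyl nitrile pathway, had 44.3, 262.1 and 63.4 CPM in amiR-TOR and 0.829, 1.22 and 0.503 CPM in Col-0. PAD3, the last enzyme of camalexin synthesis, had 13.97, 84.2 and 21.8 CPM in amiR-TOR and 6.22, 3.00 and 2.78 CPM in Col-0. CYP81F2, which hydroxylates indole glucosinolates, had 68.5, 298 and 89.3 CPM in amiR-TOR and 8.29, 8.70 and 6.89 CPM in Col-0. In all of these genes the groups stood apart, and replicate 2 of amiR-TOR was well above replicates 1 and 3. With estradiol on IAA, Col-0 averaged 54.2 ± 46.1 CPM for CYP71A12, 31.9 ± 29.0 for AT1G26380 and 2.85 ± 2.67 for CYP82C2 (SD, n = 3). There amiR-TOR averaged 143 ± 124, 105 ± 61.2 and 27.6 ± 25.9 CPM for these 3 genes. The low levels in Col-0 thus did not hold in all Col-0 libraries on IAA.

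MYB122 and MYB51, activators of indole glucosinolate genes, both rose. MYB122, in the segment, had 5.65, 27.1 and 7.25 CPM in amiR-TOR and 0.622, 0.490 and 0.503 CPM in Col-0. Its log2 fold change of 4.55 ± 0.68 lay far above the offset of the segment, and SOT16, a sulfotransferase of the last core step, was at 1.56 ± 0.27. MYB51, on another part of chromosome 1, had 31.9, 93.8 and 37.1 CPM in amiR-TOR and 12.2, 21.2 and 19.1 CPM in Col-0. MYB34, a regulator of the same group known from roots, had 32.5, 42.6 and 32.7 CPM in amiR-TOR and 37.1, 28.9 and 28.0 CPM in Col-0, and was not called. Genes of the shared core, CYP83B1, SUR1 and UGT74B1, were not called either.

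The 250 bases before 2 of the most strongly raised genes are shown because they hold W-boxes, the element bound by WRKY transcription factors. The sequences are from RefSeq assembly TAIR10.1, on the gene's strand, and capitals mark TTGACC or TTGACT read on either strand. CYP82C2 is at chr4:15462100-15462349, plus strand, with matches 245, 138 and 91 bases before the start of the gene. AT1G26380 is at chr1:9128569-9128818, minus strand, with matches 65 and 25 bases before the start.
CYP82C2: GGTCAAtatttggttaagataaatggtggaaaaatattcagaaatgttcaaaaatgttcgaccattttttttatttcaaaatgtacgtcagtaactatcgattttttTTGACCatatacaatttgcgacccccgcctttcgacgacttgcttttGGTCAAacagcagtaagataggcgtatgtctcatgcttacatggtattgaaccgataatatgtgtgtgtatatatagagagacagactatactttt
AT1G26380: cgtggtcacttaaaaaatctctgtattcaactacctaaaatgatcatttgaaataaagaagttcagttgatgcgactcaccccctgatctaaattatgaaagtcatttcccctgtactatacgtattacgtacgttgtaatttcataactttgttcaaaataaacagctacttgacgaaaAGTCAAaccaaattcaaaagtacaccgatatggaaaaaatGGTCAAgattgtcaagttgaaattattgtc

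W-boxes were present in this window in 28.8% of 21204 tested genes, in 45.7% of the 840 genes higher by 1 or more on the log2 scale, and in 22.7% of 66 lower genes. In the indole list 7 of 19 windows held 1 or more (36.8%), and neither CYP71A12 nor CYP71A13 did. These matches are a description of the letters and were not tested as binding sites.

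**Figure D2:**
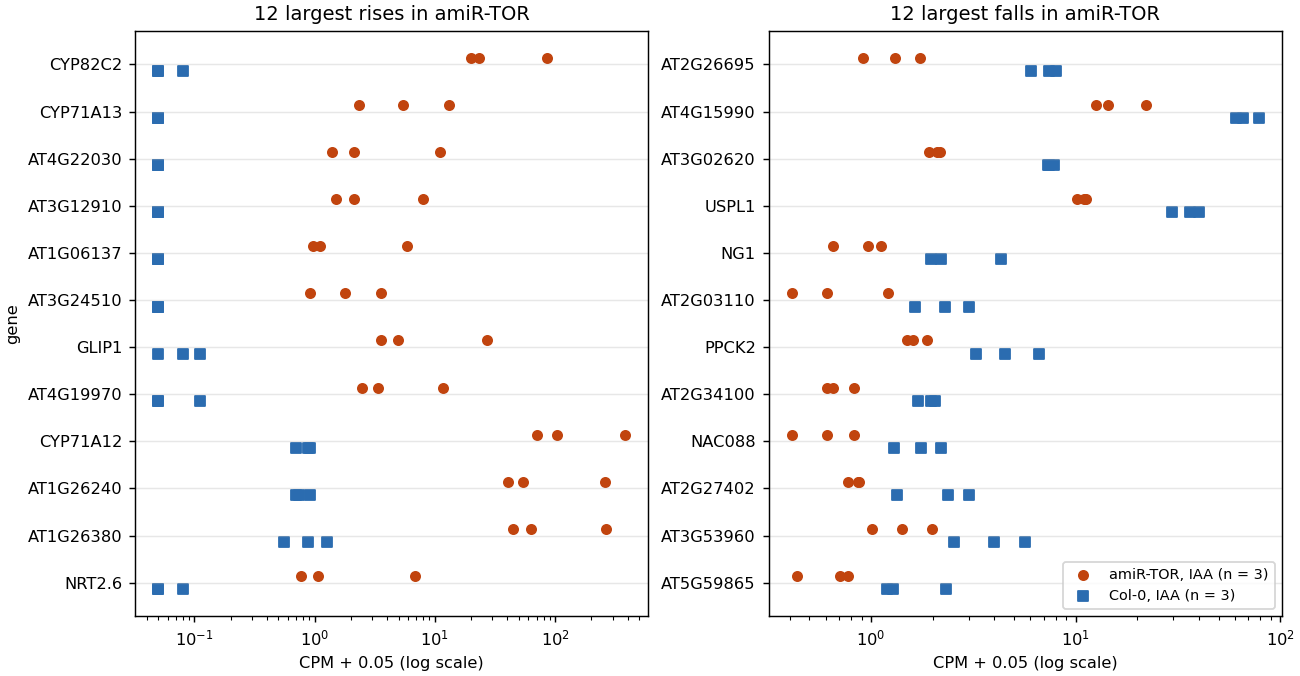
Normalised expression (CPM + 0.05, log axis) in each library of the 12 genes that rose most and the 12 that fell most, amiR-TOR and Col-0 on IAA without estradiol. Replicate 2 of amiR-TOR is the highest library for 11 of the 12 raised genes, and NRT2.6 is highest in replicate 1.

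Besides these P450 genes, the 12 largest rises held GLIP1, a secreted lipase of defence, and the genes AT4G22030 (F-box), AT3G12910 (NAC domain), AT3G24510 (defensin-like) and AT1G26240 (extensin-like). AT1G26240 had 40.6, 258 and 53.5 CPM in amiR-TOR and 0.691, 0.857 and 0.651 CPM in Col-0. With estradiol on IAA it averaged 357 ± 157 CPM in amiR-TOR and 44.9 ± 38.3 CPM in Col-0 (SD, n = 3). AT4G22030 had 0 counts in Col-0 on IAA without estradiol and was at least 30.0-fold higher. NRT2.6, a nitrate transporter also linked to pathogen responses, had 6.81, 0.722 and 1.01 CPM in amiR-TOR and 0, 0 and 0.0296 CPM in Col-0. The 12th gene had a log2 fold change of 7.18 and the 13th, RK3, 7.01.

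Genes of pattern-triggered immunity, the response to microbial and damage signals at the cell surface, rose as well. Of 27 tested, 16 rose (59.3%, against 8.52% of all tested genes) and 0 fell, with a median of 0.83. Outside the segment 14 of 25 rose. Without replicate 2 of amiR-TOR 10 of the 27 were called, as without replicate 1 or replicate 3 of Col-0, and replicate 2 of amiR-TOR was the highest of the 6 in 24. AT1G14550, a class III peroxidase, had 7.54, 47.8 and 14.05 CPM in amiR-TOR and 0.415, 0.184 and 0.0888 CPM in Col-0, a log2 fold change of 6.83 ± 1.19. PROPEP3, the precursor of a damage-signal peptide, had 10.9, 47.0 and 13.9 CPM in amiR-TOR and 3.25, 1.22 and 1.45 CPM in Col-0. Both genes stood apart between groups.

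PEPR1, the receptor of such peptides, had 43.9, 54.3 and 42.3 CPM in amiR-TOR and 23.8, 28.5 and 26.2 CPM in Col-0. It lies in the segment, and its log2 fold change of 0.83 was close to the segment's median. Its homologue PEPR2, which lies elsewhere, had 4.74, 6.01 and 6.49 CPM in amiR-TOR and 7.12, 8.94 and 7.81 CPM in Col-0, and was not called. The transcription factor gene SARD1, also in the segment, was at 2.07, and WRKY33, an activator of camalexin genes, at 1.52. WRKY11 had 149, 227 and 163 CPM in amiR-TOR and 94.3, 111 and 111 CPM in Col-0. The receptor genes FLS2 and EFR and the oxidase gene RBOHD were not called.

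The same direction was seen in several gene families, which were picked after seeing the data. Of all tested genes 8.52% were called higher, 3.95% by 1 or more on the log2 scale, and 4.11% were called lower. Of 59 WRKY genes 22 rose (37.3%) and 0 fell, and 12 of these rose by 1 or more on the log2 scale. Among class III peroxidases 20 of 57 rose (35.1%) and 1 fell. Among proline-rich extensins 18 of 42 rose (42.9%) and 1 fell, and among receptor-like kinases 70 of 295 rose (23.7%) and 7 fell. Without replicate 2 of amiR-TOR 13 WRKY genes, 18 peroxidases, 18 extensins and 29 receptor-like kinases were called higher. MYB genes stood near the background, with 9 of 109 higher and 5 lower, and NAC genes too, with 8 of 85 higher and 4 lower.

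Genes of detoxification and mitochondrial stress rose in 12 of 31 cases (38.7%, against 8.52% of all tested genes), and 0 fell. Their median was 0.54, and outside the segment 11 of 30 rose. GSTF6, a glutathione S-transferase, had 309, 1354 and 428 CPM in amiR-TOR and 31.3, 34.7 and 28.9 CPM in Col-0. Its neighbour GSTF7 had a log2 fold change of 3.56 ± 0.67, and their coding sequences are 94.7% identical, so their separate values are uncertain. GSTU10, in the segment, had 77.3, 158 and 84.6 CPM in amiR-TOR and 17.62, 21.4 and 18.6 CPM in Col-0. AOX1A, the alternative oxidase that reports mitochondrial stress, had 67.8, 67.1 and 56.8 CPM in amiR-TOR and 47.3, 60.7 and 51.1 CPM in Col-0, and was not called. Without replicate 2 of amiR-TOR 6 of the 31 were called, and 6 without replicate 1 of Col-0.

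**Figure D3:**
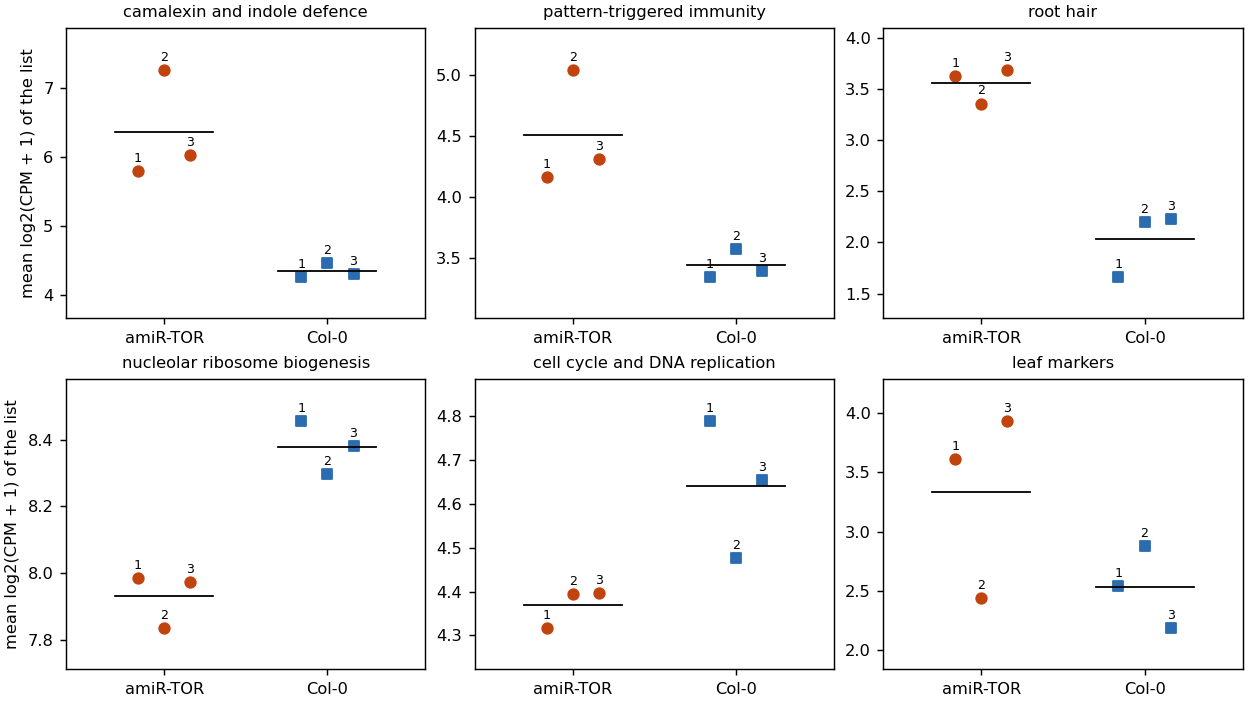
Mean of log2(CPM + 1) over the members of gene lists in each of the 6 libraries, amiR-TOR left of Col-0. For indole defence it was 5.80, 7.27 and 6.04 in amiR-TOR and 4.27, 4.47 and 4.31 in Col-0, with replicate 2 of amiR-TOR apart.

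Hormone pathways of defence held some calls, and their counts rested on single libraries. In the salicylic acid list 3 of 13 genes rose (23.1%, against 8.52% of all tested genes) and 0 fell, with 1 called without replicate 3 of amiR-TOR or without replicate 3 of Col-0. One was ICS1, the main enzyme of salicylic acid synthesis, which lies in the segment and had 5.07, 4.69 and 5.58 CPM in amiR-TOR and 2.42, 2.33 and 2.37 CPM in Col-0. The other two were SAG101, a partner of EDS1 in immune signalling, and AT5G52810. In the jasmonate list 5 of 19 rose (26.3%) and 1 fell, with 3 higher and 2 lower without replicate 1 of Col-0 and 2 higher without replicate 3 of Col-0. The repressor gene JAZ2, in the segment, was at 0.53 ± 0.11. VSP1, a storage protein gene induced by jasmonate, fell, with 56.0, 55.0 and 45.6 CPM in amiR-TOR and 110, 75.6 and 133 CPM in Col-0. In the ethylene list 3 of 19 rose (15.8%), among them the synthase gene ACS11, and 1 fell, with 1 higher without replicate 1 of Col-0.

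Root hair genes formed a separate group of rises, in which replicate 2 of amiR-TOR was never the highest. Root hairs grow from epidermal cells under the transcription factors RHD6 and RSL1 and, after them, RSL2 and RSL4, which turn on wall and oxidase genes. Of 10 genes 8 rose (80%, against 8.52% of all tested genes) and 0 fell, with a median of 2.24. The 8 were called under every alternative tried, without replicate 2 of amiR-TOR too. None of the 10 lies in the segment. Their summed level was 176, 137 and 178 CPM in amiR-TOR and 29.8, 47.6 and 48.0 CPM in Col-0. In bulk roots, more cells of a type and more RNA per cell cannot be told apart.

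The 2 members not called were the early factors RHD6 and RSL1. RHD6 had 5.22, 3.73 and 5.07 CPM in amiR-TOR and 4.35, 4.96 and 3.61 CPM in Col-0, with overlapping groups. RSL1 had 0.145, 0.722 and 0.304 CPM in amiR-TOR and 1.04, 0.490 and 0.473 CPM in Col-0, levels so low that a change could be missed. The later factor RSL2 had 7.10, 7.94 and 11.4 CPM in amiR-TOR and 1.38, 2.76 and 1.78 CPM in Col-0, a log2 fold change of 2.17 ± 0.31 (Benjamini-Hochberg adjusted p = 7.83e-05, edgeR's quasi-likelihood test). RSL4 was at 1.52, with an adjusted p of 0.00517 in the same edgeR quasi-likelihood test.

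Wall genes rose most. EXPA7, a root hair expansin that loosens walls, had 33.4, 16.5 and 35.7 CPM in amiR-TOR and 3.25, 5.33 and 6.07 CPM in Col-0, a log2 fold change of 2.53 ± 0.36. The proline-rich wall protein gene PRP1 had 18.4, 11.8 and 15.4 CPM in amiR-TOR and 1.04, 2.51 and 2.52 CPM in Col-0. LRX1, a leucine-rich extensin of the hair wall, had 16.3, 14.8 and 14.8 CPM in amiR-TOR and 0.553, 2.51 and 3.73 CPM in Col-0. PRP3 and EXPA18 were at 2.31 and 2.33, and the NADPH oxidase gene RHD2 at 1.14. In each of these genes the lowest amiR-TOR library lay above the highest Col-0 library.

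The root hair element, the site known to be bound by RSL4 and its relatives, was found in the 250 bases before 5 of the 10 genes, against 0.755% of all 21204 windows. The 5 matches are shown because they are shared by genes that rose together. They are from TAIR10.1, on the strand of the match, and capitals mark the CACG core. The element was first defined partly from such genes, so its presence is not independent of the list.
EXPA7: atagtgatccgCACGta
EXPA18: aacatgaacgCACGtc
PRP1: atagtgttatgCACGat
PRP3: taagtgtaatgCACGat
LRX1: aacttggacgCACGtt

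On NPA the root hair difference was smaller. There 2 of the 10 genes were called higher, RSL2 and RHD2, against 10.7% of all tested genes, and the median was 0.72. The difference between the IAA and NPA comparisons was itself called for EXPA7 (1.8, adjusted p = 0.0451) and EXPA18 (1.62, adjusted p = 0.0426) in edgeR's quasi-likelihood test of the interaction. Mean log2(CPM + 1) over the list was 3.56 ± 0.18 in amiR-TOR and 2.03 ± 0.32 in Col-0 on IAA, and 4.26 ± 0.11 in amiR-TOR and 3.59 ± 0.28 in Col-0 on NPA (SD, n = 3 each).

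Markers of root tissues were detected in all 6 libraries, and their summed level lay between 239 and 267 CPM in amiR-TOR and between 219 and 241 CPM in Col-0. Of 13, 5 rose (38.5%, against 8.52% of all tested genes) and 1 fell. There were 3 higher without replicate 2 of Col-0 or replicate 3 of amiR-TOR and 2 without replicate 3 of Col-0. COBL9, of hair cells, PLT1 and PLT2, of the stem cell niche, BRN1, of the root cap, and WER, of the epidermis, rose, and TMO5, of the vascular tissue, fell. PLT1 had 18.22, 26.1 and 22.2 CPM in amiR-TOR and 10.9, 12.98 and 11.9 CPM in Col-0. Of 21 Casparian strip and suberin genes 2 rose (9.52%, near the 8.52% of all tested genes) and 0 fell. Leaving out any 1 library other than replicate 1 of amiR-TOR left 1.

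Leaf markers were low but not absent. Their summed level was 131 to 206 CPM in amiR-TOR and 102 to 144 CPM in Col-0. It was lowest among amiR-TOR libraries in replicate 2, where LHCB1.1 was at 0. Of the 10, LHCA1, CA1 and LHCB1.2 rose (30%, against 8.52% of all tested genes). None of the 10 was called without replicate 1 of Col-0, replicate 3 of Col-0 or replicate 3 of amiR-TOR. Their part in the other results was not tested.

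**Figure D4:**
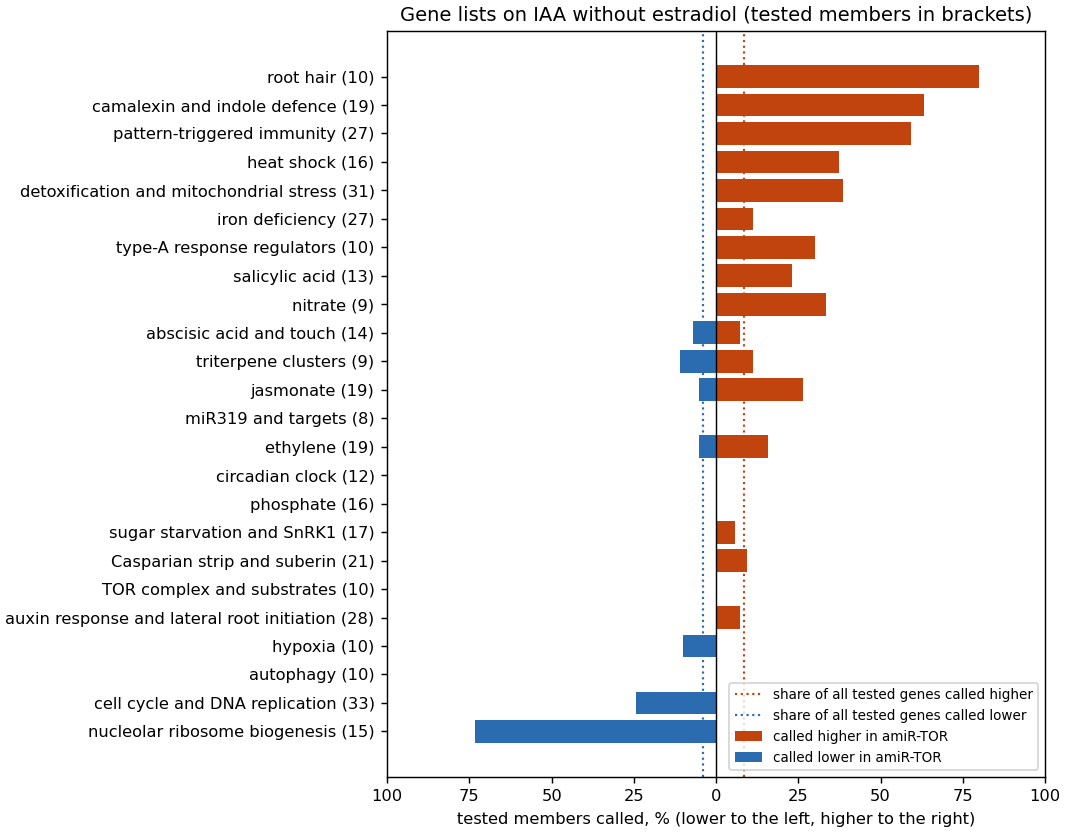
Percent of the tested members of each gene list called higher (bars to the right) or lower (bars to the left) in amiR-TOR on IAA. Root and leaf markers are left out. Dotted lines mark the shares of all tested genes, 8.52% higher and 4.11% lower. The longest bars to the right are those of root hair, indole defence and immunity genes, and the longest to the left that of nucleolar genes.

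Several growth genes were lower by small amounts. In the nucleolar list, which makes ribosomes, 11 of 15 fell and 0 rose (4.11% of all tested genes were called lower), with a median of -0.46. In all 15 the highest amiR-TOR library lay below the lowest Col-0 library, which held for 14.6% of all tested genes. DESeq2 called all 15 lower, among 1672 genes that it called lower in all. CBF5, the pseudouridine synthase of the nucleolus, had 383, 343 and 373 CPM in amiR-TOR and 650, 518 and 541 CPM in Col-0. NUC1, nucleolin, had 1235, 998 and 1218 CPM in amiR-TOR and 1505, 1575 and 1594 CPM in Col-0. The edgeR test called 3 of the 15 without replicate 2 of amiR-TOR or replicate 1 of Col-0, and 7 without replicate 3 of either group. Ribosomal protein genes stood near the background: of 360, 16 fell (4.44%) and 5 rose, with a median of -0.22; 0 fell without replicate 2 of amiR-TOR, 2 without replicate 1 of Col-0, 4 without replicate 3 of amiR-TOR, 8 without replicate 3 of Col-0 and 63 without replicate 2 of Col-0, and DESeq2 called 55 lower.

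The median of the cell cycle and DNA replication list was -0.31. Of its 33 genes 0 rose and 8 fell (24.2%, against 4.11% of all tested genes). They were the mitotic cyclins CYCB1;4 and CYCB1;3, the kinases CDKB1;2 and CDKB2;1, KNOLLE, which builds the division plate, CYCD3;2, MCM6 and PCNA2. CYCB1;4 had 15.6, 19.5 and 19.4 CPM in amiR-TOR and 38.6, 29.8 and 30.4 CPM in Col-0, a log2 fold change of -0.86 ± 0.13 (Benjamini-Hochberg adjusted p = 0.000171, edgeR's quasi-likelihood test). CDKB2;1 had 40.7, 37.2 and 44.8 CPM in amiR-TOR and 65.4, 45.4 and 61.0 CPM in Col-0. The count was 3 without replicate 1 of Col-0 and 14 without replicate 2 of Col-0, and it was 5 without replicate 2 or replicate 3 of amiR-TOR or replicate 3 of Col-0.

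These growth genes did not differ in the same way on NPA. There 10.7% of all tested genes were called higher in amiR-TOR and 11.4% lower. Of the 33 cell cycle genes 19 were called higher on NPA and 0 lower, with a median of 0.53. The edgeR interaction test called 20 of 33 more negative on IAA (1.56% of all tested genes). For the nucleolar list 2 of 15 were called higher on NPA, near the share of all tested genes, with a median of 0.13. In the interaction test 6 of 15 were more negative on IAA. The interaction was -1.44 for CYCB1;4, -1.26 for CYCB1;3, -1.0 for CDKB2;1 and -0.81 for CBF5.

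**Figure D5:**
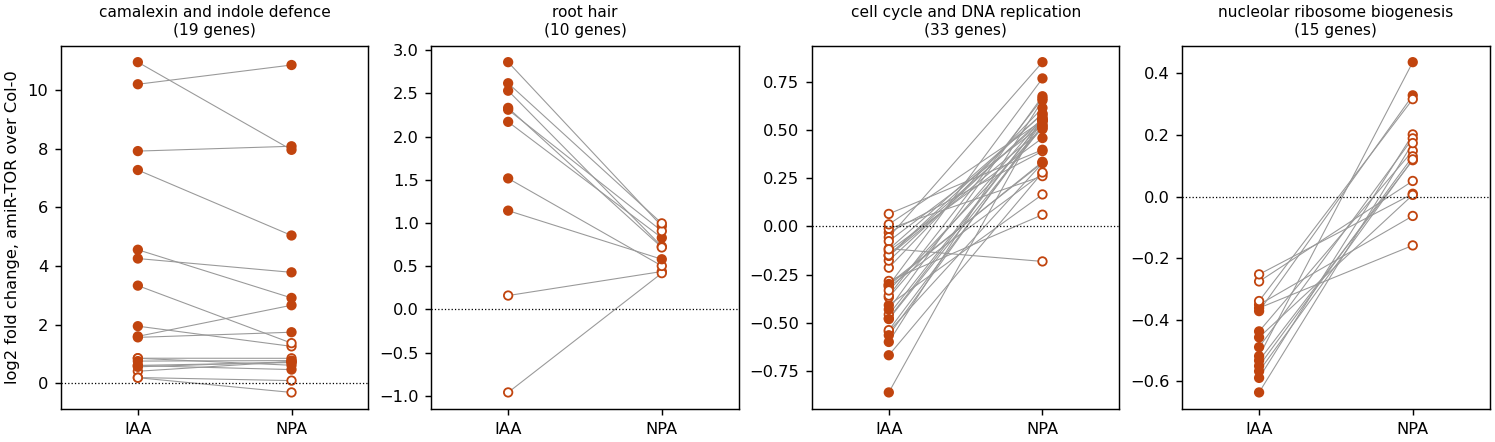
Log2 fold change of amiR-TOR over Col-0 (y axis) on IAA and on NPA (x axis), both without estradiol. Panels show the indole defence, root hair, cell cycle and nucleolar lists. A line joins the values of each gene, and filled points were called in the comparison they stand for. Cell cycle genes lie mostly below 0 on IAA and above 0 on NPA, and indole genes lie mostly above 0 on both.

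Few auxin response and lateral root initiation genes were called on IAA. Of 28 genes 2 rose, IAA1 (0.41 ± 0.10) and IAA14 (0.43 ± 0.12), which is near the background (7.14%, against 8.52% of all tested genes). None fell (4.11% of all tested genes), and the median was -0.08. But in 9 of the 28 all amiR-TOR libraries lay below all Col-0 libraries (14.6% of all tested genes), and in 2 above (16.0%). In edgeR's test 6 had an unadjusted p under 0.05. Leaving out replicate 1 or replicate 2 of Col-0 or replicate 3 of amiR-TOR left 1 higher, and without the last of these 1 was lower. LBD16, which starts asymmetric division of founder cells, had 99.5, 110 and 86.4 CPM in amiR-TOR and 117, 135 and 140 CPM in Col-0. Its groups did not overlap, but the adjusted p was 0.0733 in edgeR's quasi-likelihood test and 0.0344 with DESeq2. GATA23, a marker of founder cells, had 63.0, 53.4 and 69.9 CPM in amiR-TOR and 88.9, 70.1 and 74.9 CPM in Col-0, and was not called. The auxin-conjugating GH3.3 had 2754, 3241 and 2498 CPM in amiR-TOR and 2008, 2963 and 2253 CPM in Col-0, with overlapping groups. On NPA 8 of the 28 were called higher and 1 lower, against 10.7% and 11.4% of all tested genes.

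Of the type-A response regulators, feedback inhibitors of cytokinin signalling, 3 of 10 rose (30%, against 8.52% of all tested genes) and 0 fell. But 1 was called without replicate 1 of amiR-TOR and 0 without replicate 3 of Col-0. ARR6 had 13.7, 11.1 and 11.6 CPM in amiR-TOR and 8.08, 8.45 and 7.84 CPM in Col-0, and was lower on NPA, with an interaction of 1.16. ARR5 was called by edgeR's quasi-likelihood test (adjusted p = 0.0412), but its groups overlapped, and the adjusted p was 0.0626 with RLE scaling and 0.0519 with DESeq2. ARR17 was called too, although it stayed under 0.5 CPM. ARR15, in the segment, had 1.11, 0.241 and 0.913 CPM in amiR-TOR and 0, 0.184 and 0.296 CPM in Col-0. These groups overlapped, and the adjusted p was 0.0568 in edgeR's quasi-likelihood test and 0.0263 with DESeq2.

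Among lists often read for low TOR activity, those of sugar starvation and autophagy held few calls, near or below the shares of all tested genes. Those shares were 8.52% higher and 4.11% lower. The nucleolar and cell cycle lists, with 11 of 15 and 8 of 33 genes called lower, are described above. Of 17 genes of sugar starvation and the kinase SnRK1, 1 rose (5.88%) and 0 fell. There were 0 called without replicate 1 or replicate 3 of amiR-TOR or replicate 1 or replicate 3 of Col-0. DIN6, an asparagine synthetase gene of dark and sugar starvation, had 75.5, 41.1 and 61.9 CPM in amiR-TOR and 18.4, 24.4 and 15.3 CPM in Col-0. DIN1 had 115, 60.9 and 84.8 CPM in amiR-TOR and 49.3, 68.3 and 45.1 CPM in Col-0, and its groups overlapped. None of 10 autophagy genes was called by edgeR or DESeq2 or had an unadjusted p under 0.05.

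Among nutrient genes, the nitrate list had 3 of 9 higher (33.3%, against 8.52% of all tested genes). NRT2.1, the main high-affinity nitrate transporter of roots, had 173, 377 and 250 CPM in amiR-TOR and 33.4, 63.1 and 28.2 CPM in Col-0, a log2 fold change of 2.68 ± 0.42, and its partner NRT3.1 was at 1.12 ± 0.18. In the iron list 3 of 27 rose (11.1%, near the 8.52% of all tested genes), of which AT1G74770 lies in the segment. Outside the segment 2 of 26 rose. In the whole list 1 was called without replicate 2 of amiR-TOR or without replicate 1 or replicate 3 of Col-0. IRT1, the iron importer, had 189, 92.4 and 77.8 CPM in amiR-TOR and 58.5, 74.5 and 68.3 CPM in Col-0. Its groups did not overlap, and the adjusted p was 0.0631 in edgeR's quasi-likelihood test and 0.0234 with DESeq2. None of 16 phosphate genes was called by edgeR or DESeq2, and 1 had an unadjusted p under 0.05.

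In the heat shock list 6 of 16 rose (37.5%, against 8.52% of all tested genes) and 0 fell. Outside the segment 5 of 15 rose. Without replicate 1 of amiR-TOR, or without replicate 2 or replicate 3 of Col-0, 3 were called. HSFA2, a heat-inducible transcription factor, had 15.5, 12.03 and 13.9 CPM in amiR-TOR and 5.32, 4.41 and 3.58 CPM in Col-0, a log2 fold change of 1.67 ± 0.19 (Benjamini-Hochberg adjusted p = 4.53e-06, edgeR's quasi-likelihood test). HSP101, the disaggregase needed for heat tolerance, lies in the segment. It had 64.4, 43.4 and 50.6 CPM in amiR-TOR and 14.6, 26.3 and 19.8 CPM in Col-0. HSP90.1 and HSP70-4 were not called.

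The remaining lists had few calls on IAA, where 8.52% of all tested genes were called higher and 4.11% lower. In the triterpene clusters 1 of 9 rose (THAH, 11.1%) and 1 fell (CYP705A1, 11.1%), and of 10 hypoxia genes SUS4 fell (10%). A single member makes up each of these shares. The call of THAH was lost on leaving out any 1 library other than replicate 2 of Col-0, and without replicate 1 of Col-0 2 triterpene genes were lower. Of 14 abscisic acid and touch genes CML38 rose (7.14%) and NCED3, the rate-limiting enzyme of abscisic acid synthesis, fell (7.14%). NCED3 had 1.5, 0.962 and 1.42 CPM in amiR-TOR and 3.94, 3.31 and 3.02 CPM in Col-0. Without replicate 2 of amiR-TOR none of the 14 was called; without replicate 1 of Col-0 2 were higher and 0 lower, and without replicate 3 of Col-0 0 were higher. None of 12 clock genes was called by edgeR or DESeq2 on IAA, and 2 had an unadjusted p under 0.05. On NPA 6 were called lower, against 11.4% of all tested genes.

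The 12 largest falls belonged to no 1 pathway and none exceeded a log2 fold change of -2.57. AT2G26695, a zinc finger protein gene, had 1.26, 1.68 and 0.862 CPM in amiR-TOR and 6.01, 7.35 and 7.96 CPM in Col-0, a log2 fold change of -2.57 ± 0.35. AT4G15990, of unknown function, had 22.1, 12.5 and 14.3 CPM in amiR-TOR and 60.5, 78.5 and 65.5 CPM in Col-0. AT3G02620, an acyl-carrier-protein desaturase gene, had 2.13, 2.04 and 1.88 CPM in amiR-TOR and 7.39, 7.78 and 7.28 CPM in Col-0. It was at 0.10 on NPA, and its interaction was -1.99. PPCK2, a kinase of phosphoenolpyruvate carboxylase, fell by 1.52 on the log2 scale. The groups did not overlap in these genes.

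On NPA, in 6 libraries that are not contrasted in the IAA comparison, amiR-TOR differed from Col-0 at 4714 genes (22.1%), of which 2283 were higher (10.7%) and 2431 lower (11.4%). Of the 840 genes that were higher on IAA by 1 or more on the log2 scale, 493 were also called higher on NPA (58.7%) and 3 were called lower. Of the 875 lower on IAA, 242 were called lower on NPA (27.7%) and 36 higher. The test of the difference itself called 634 genes (2.98%), 301 of them more positive on IAA (1.41%) and 333 more negative.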

How the data were processed

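Per the submitters' processing notes, reads were aligned with STAR 2.5.2b to TAIR10, and DESeq2 was used. The authors deposited 1 table of raw counts per library, with counts per gene locus, unstranded and per strand, below 4 summary lines. The column of the strand that held 95.8% to 96.2% of the assigned reads was used. The summary lines, which name no gene, took 6.81% to 50.6% of reads in the 6 libraries and were left out. Depth limits rare genes: intervals and floors of 3 counts cover counting error only.

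All 24 libraries (8 groups of 3) entered 1 edgeR 4.0.16 quasi-likelihood fit (R 4.3.3, TMM factors 0.957 to 1.04, filterByExpr, robust), which left 21290 of 32833 loci. The common biological coefficient of variation was 0.143. Calls are at a Benjamini-Hochberg adjusted p under 0.05 over all tested genes of a comparison, and standard errors are the log2 fold change divided by the root of the F statistic. The code was tested on simulated data. Alternatives were DESeq2 1.42.0, RLE scaling, no filter, unstranded counts, only the groups compared, a covariate for libraries with over 20% unmapped reads, a replicate block, and leaving out libraries. Python 3.11.15 with pandas 2.3.3, numpy 2.4.6, scipy 1.17.1 and matplotlib 3.10.9 made summaries and figures.

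Named genes are TOR and MIR319a, the 12 largest called rises and falls with a mean of at least 1 CPM and groups that did not overlap, and list members with the smallest p-values or a role stated. The members and lists were chosen with earlier results of these data known. Other list members, segment genes and families were chosen after their values were seen. The segment was found in these data. Gene names, positions and sequences come from RefSeq TAIR10.1, which matched 32548 loci. The count tables hold no positions, and none was converted. The values of some single list members are not reported here.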

Additional observations from a re-analysis of the deposited data

Results flagged for a closer look

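The difference between amiR-TOR and Col-0 was not the same on IAA and on NPA for 634 genes, by edgeR's quasi-likelihood test of the interaction at an adjusted p under 0.05. The values here are the log2 fold change on IAA minus that on NPA. Among the genes named, growth genes were more negative on IAA. CYCB1;4 stood at -1.44, CYCB1;3 at -1.26, CDKB2;1 at -1.0 and CYCD3;2 at -0.58. The nucleolar genes CBF5, NOP56 and AT3G05060 stood at -0.81, -0.79 and -0.68. The desaturase gene AT3G02620 stood at -1.99.

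Other genes were more positive on IAA. The root hair expansin genes EXPA7 and EXPA18 stood at 1.8 and 1.62, and the heat shock factor gene HSFA2 at 1.19. The cytokinin response regulators ARR6 and ARR5 stood at 1.16 and 0.93, and the nitrate transporter gene NRT1.5 at 1.44. The clock genes TOC1 and PRR7 stood at 0.70 and 0.72. The largest of these values were in the leaf markers CA1 (4.33) and LHCB1.2 (3.74), both of low counts.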

How the results depend on the processing

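Of 87 named genes called on IAA, 54 were called under every alternative in which they were tested and 0 changed direction while called. The 2688 calls on IAA became 1494 to 2577 when 1 library was left out (1494 without amiR-TOR replicate 2, 1540 without Col-0 replicate 1 and 1583 without Col-0 replicate 3), and 2930 with RLE scaling, 2279 with no filter, 2743 without regard to strand, 3604 with DESeq2 and 2709 with the covariate. Leaving out 1 library gave 1112 to 1688 higher and 325 to 889 lower genes, 591 to 834 higher and 37 to 82 lower by 1 or more on the log2 scale, 2853 to 4709 calls on NPA and 153 to 1400 for the interaction. Lower genes numbered 507 with only the groups compared, 1672 with DESeq2 and 564 without the 5 libraries of over 20% unmapped reads, an alternative chosen after seeing the data; fewer libraries or groups entered the first and last of these. DESeq2 called 113 genes lower by at least 1 on the log2 scale. The interaction had 1259 calls with DESeq2 and 1100 with the covariate; the cause was not tested. In the segment of chromosome 1, the other alternatives gave 221 to 246 higher genes, and leaving out 1 library 203 to 221; outside it, leaving out 1 library gave 909 to 1469 higher genes. MIR319a, not called, lay between -0.91 and 0.32 when 1 library was left out, and was above 0 (0.32, 0.03 and 0.14) without Col-0 replicate 2, amiR-TOR replicate 2 and amiR-TOR replicate 3. Equal replicate numbers did not pair the libraries on IAA (correlations 0.02, 0.03 and -0.08), and the replicate block gave 2525 calls on IAA, 4485 on NPA and 505 for the interaction.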

Other observations

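Other families, also picked after seeing the data, held calls on IAA in both directions. Among 150 cytochrome P450 genes 24 rose and 6 fell, among 111 UDP-glycosyltransferase genes 14 rose and 2 fell, and among 100 genes of calmodulin-like and EF-hand calcium-binding proteins 22 rose and 5 fell. Of 255 pentatricopeptide repeat genes, which act in organelle RNA processing, 6 rose and 12 fell. For comparison, 8.52% of all tested genes were called higher and 4.11% lower. The share called lower was thus near or below the background in each of these families. The share called higher was above the background, except in the pentatricopeptide repeat genes, where it was below. Inside the chromosome 1 segment the largest rise was in LCR67, a gene of a small cysteine-rich protein of the defensin type. It had 0.822, 8.54 and 1.98 CPM in amiR-TOR and 0, 0.0612 and 0.0296 CPM in Col-0 and was called on IAA. On NPA its log2 fold change was 3.31 ± 1.67 (adjusted p = 0.163, edgeR's quasi-likelihood test).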
